A study of Mus musculus with 2 samples.

Results

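The genes described here are 34 named genes of glucose breakdown and of the response to low oxygen, taken by symbol from the 32285 genes counted in 2 mouse liver libraries. All 34 symbols were found in both matrices. They comprise 20 glycolysis genes (the glucose carriers Slc2a1 and Slc2a3, the enzymes from the hexokinases to pyruvate kinase, 2 of the Pfkfb genes that set the level of the phosphofructokinase activator, Ldha and the lactate carriers Slc16a1 and Slc16a3) and 14 hypoxia genes (Vegfa, Adm, Hilpda, Bnip3, Egln3, Ndrg1, Ankrd37, P4ha1, Pdk1, Ak4, Higd1a, Bhlhe40, Kdm3a and Mxi1). The series concerns β-catenin-mutant liver cancer, and each library came from 1 tumour-bearing mouse with floxed Glul alleles (Glulf/f), where Glul encodes glutamine synthetase (GS). AAV8, a virus vector with a strong preference for hepatocytes, carried GFP in the control and the recombinase Cre in the GS-KO mouse, and cells were taken 7 weeks later. Both mice carried tumours and floxed alleles, and the labels give neither the promoter driving Cre nor age or strain. Liver cells from collagenase perfusion were enriched with beads against F4/80, a macrophage surface protein, freed of dead cells and counted by a droplet 3′ method.

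Glycolysis turns glucose into pyruvate, and lactate dehydrogenase A (Ldha) turns pyruvate into lactate, which leaves the cell through Slc16a3 or Slc16a1. Neutrophils have few mitochondria and live largely from glycolysis, whereas hepatocytes can run much of the pathway backwards to make glucose and use glucokinase rather than the hexokinases Hk1, Hk2 and Hk3. In low oxygen the prolyl hydroxylases, among them Egln3, become less active, the HIF transcription factors accumulate and bind short DNA elements, and genes such as Vegfa (an endothelial growth factor), Adm (a vasodilator peptide) and Bnip3 (a mitochondrial clearance protein) are transcribed. HIF also raises many glycolysis genes, and several genes of both lists have other inducers.

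Of 5074 control and 1366 GS-KO barcodes, 3275 and 662 passed the filter (500 or more UMIs, which are molecular identifiers that count each transcript once, 200 or more genes, and no more than 20% of UMIs from mitochondrial genes), and 3251 and 655 were kept after doublets were removed. The labels state a minimum of 7500 cells, without saying for which population. The libraries shared 1 barcode sequence, and no kept cell. Clustering was done without the 34 genes and the wider pathway lists, and clusters were named from markers, with "-like" because the names rest on RNA. The control and GS-KO libraries gave 99 and 103 neutrophil-like, 113 and 87 endothelial-like, 500 and 25 Kupffer-like (resident liver macrophage), 614 and 47 macrophage-like, 105 and 51 monocyte-like and 401 and 17 hepatocyte-like cells, besides B-like and T-like cells. The 17 GS-KO hepatocyte-like and 25 Kupffer-like cells set the precision of every ratio in those classes. The Kupffer-like cluster was led by Cd209f, Fcna and Ccr3. Clusters led by Cd209f, Fcna and Spic were named macrophage-like at clustering resolution 2 (246 control and 13 GS-KO cells) and at a 10% mitochondrial limit (324 and 16). The border between Kupffer-like and macrophage-like cells thus depended on the settings. Glul, the targeted gene, was at 2982 CPM (UMIs scaled to a class total of 1000000) in control and 30.2 CPM in GS-KO hepatocyte-like cells. Whether its counted 3′ end lies outside the deleted part is not given. Median depth per cell was alike between libraries in Kupffer-like cells (15698.5 and 15606 UMIs) and far apart in hepatocyte-like cells (50139 and 11261). With 1 mouse per group there is no test of a group difference, and all 95% intervals cover counting error only. Levels are compared for 1 gene across cells, not between genes.

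The letters that HIF binds are shown first for 4 hypoxia genes, chosen after their values were seen. These genes were higher in the GS-KO library in neutrophil-like or endothelial-like cells. Whether the letters have a part in those ratios was not tested. The search covered the 250 bases before each transcription start in the RefSeq promoter table (build GRCm38.p6), in which 31 of the 34 genes had 49 windows. Slc2a3, Ndrg1 and Bhlhe40 had no entry. The letters searched were ACGTG and GCGTG on both strands (read as CACGT and CACGC on the other strand), and ACGTG also lies within the E-box CACGTG bound by other factors. Either one was present in 38 of the 49 windows (77.6%), in 22 of 27 glycolysis and 16 of 22 hypoxia windows, against 38.6% of all 32851 windows of that length. Base composition was not matched, windows of 1 gene can overlap, and a match is a description of letters, not a bound site. The stretches below run 5′ to 3′ toward the gene, with matches in capitals and 25 bases on each side where the window allows. The Ankrd37 stretch lies at chr8:45999851-46000100, minus strand, and the Egln3 stretch at chr12:54204074-54204124, minus strand. The Bnip3 stretch lies at chr7:138909512-138909648, minus strand, and the Adm stretch at chr7:110627542-110627632, plus strand. The Ankrd37 stretch lies inside the annotated gene (chr8:45996902-46005707), before a listed start within it.
Ankrd37: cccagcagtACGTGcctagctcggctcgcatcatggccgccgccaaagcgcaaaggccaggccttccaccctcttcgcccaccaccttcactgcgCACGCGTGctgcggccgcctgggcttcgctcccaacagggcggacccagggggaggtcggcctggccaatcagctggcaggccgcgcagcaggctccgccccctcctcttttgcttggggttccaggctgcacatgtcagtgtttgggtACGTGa
Egln3: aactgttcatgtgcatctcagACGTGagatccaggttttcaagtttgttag
Bnip3: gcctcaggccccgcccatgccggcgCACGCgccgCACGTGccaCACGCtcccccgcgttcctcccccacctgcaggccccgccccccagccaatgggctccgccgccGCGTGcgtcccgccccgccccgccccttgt
Adm: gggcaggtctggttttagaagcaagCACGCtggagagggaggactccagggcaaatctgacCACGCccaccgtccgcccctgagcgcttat
The Bnip3 stretch holds 5 matches, 2 of which overlap in the E-box CACGTG, the Ankrd37 stretch 4, the Adm stretch 2 and the Egln3 stretch 1. Of the 2 Vegfa windows 1 had no match and the other, at a second listed start, had 2.

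Neutrophil-like cells held the highest level of both glucose carriers, of the lactate exporter Slc16a3 and of several enzymes. In the control library 8 of the 20 glycolysis genes were highest there among 8 classes (Slc2a1, Slc2a3, Pkm, Aldoa, Pfkfb3, Pfkfb4, Gpi1 and Slc16a3), where 12.4% of all genes with at least 50 UMIs were highest in that class. Of the 18 with enough UMIs in the GS-KO library, 9 were, against 14.2% of all genes. Slc2a3, the high-affinity glucose carrier, was at 269 and 303 CPM in the control and GS-KO libraries, and the next class in the control library was B-like at 19.4 CPM. The level was 13.9-fold (95% interval 9.11 to 21.5) higher in neutrophil-like cells. Slc16a3, the lactate exporter, was at 210.3 and 425 CPM, with monocyte-like cells next at 47.9 and 75.8 CPM, and endothelial-like, Kupffer-like, macrophage-like and hepatocyte-like cells under 21 CPM in both libraries. Pfkfb4, which makes the phosphofructokinase activator fructose 2,6-bisphosphate, was at 129 and 187 CPM, 5.02-fold (95% interval 2.86 to 8.95) above monocyte-like cells in the control library. Slc2a1, the general glucose carrier, was at 77.9 and 132 CPM there and at 10.1 and 13.4 CPM in hepatocyte-like cells. Pkm, the pyruvate kinase gene of non-liver tissue, was at 756 and 724 CPM in neutrophil-like and 29.6 and 101 CPM in hepatocyte-like cells, the lowest of the 8 classes in the control library. Aldoa, Gpi1 and Pfkfb3 were highest in control neutrophil-like cells too, but by factors whose intervals included 1. In the GS-KO library Pfkfb3 was highest in endothelial-like cells, at 33.4 CPM against 32.2 CPM in neutrophil-like cells.

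The enzymes were highest in different classes. In the control library 5 glycolysis genes were highest in hepatocyte-like cells, where 21.5% of all genes were, namely Ldha (572 CPM, 1.73-fold with an interval of 1.67 to 1.79 over macrophage-like cells), Tpi1 (407 CPM, 1.96-fold with an interval of 1.88 to 2.05), Gapdh (1095 CPM, 1.14-fold with an interval of 1.11 to 1.16), Pgam1 and the lactate carrier Slc16a1 (51.7 CPM, 5.38-fold with an interval of 2.47 to 14.7 over endothelial-like cells). In the GS-KO library 3 of 18 were (Ldha, Tpi1 and Gapdh), beside 17.4% of all genes. The hepatocyte-like counts of both libraries lay near the shares of all genes. The hexokinases were nearly absent from hepatocyte-like cells: Hk1, Hk2 and Hk3 had 4, 6 and 21 UMIs among 23173292 in the control library and none among 298215 in the GS-KO library, where a count of 0 allows a level of up to 10.1 CPM. Hk3 was found mainly in myeloid cells, at 112 and 88.8 CPM in Kupffer-like, 105 and 74 CPM in neutrophil-like and 87.6 and 63.7 CPM in macrophage-like cells of the control and GS-KO libraries. Hk2 was highest in monocyte-like (66.8 CPM) and macrophage-like (60.7 CPM) control cells, which did not differ beyond counting error. Hk1 and Pfkl, the liver-type phosphofructokinase, were highest in endothelial-like cells (35.2 and 62.5 CPM in the control library), the former 1.86-fold (95% interval 0.943 to 3.73) and the latter 1.96-fold (95% interval 1.37 to 2.72) above the next class. Pfkp, the platelet-type phosphofructokinase, was at 49 and 43 CPM in monocyte-like and 0.259 CPM in control hepatocyte-like cells. Endothelial-like cells were highest for 2 control and 2 GS-KO glycolysis genes (26% and 24.6% of all genes), monocyte-like cells for 4 and 2 (9.19% and 12.9%), and Kupffer-like cells for 1 and 2 (8.4% and 9.71%).

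**Figure D1:**
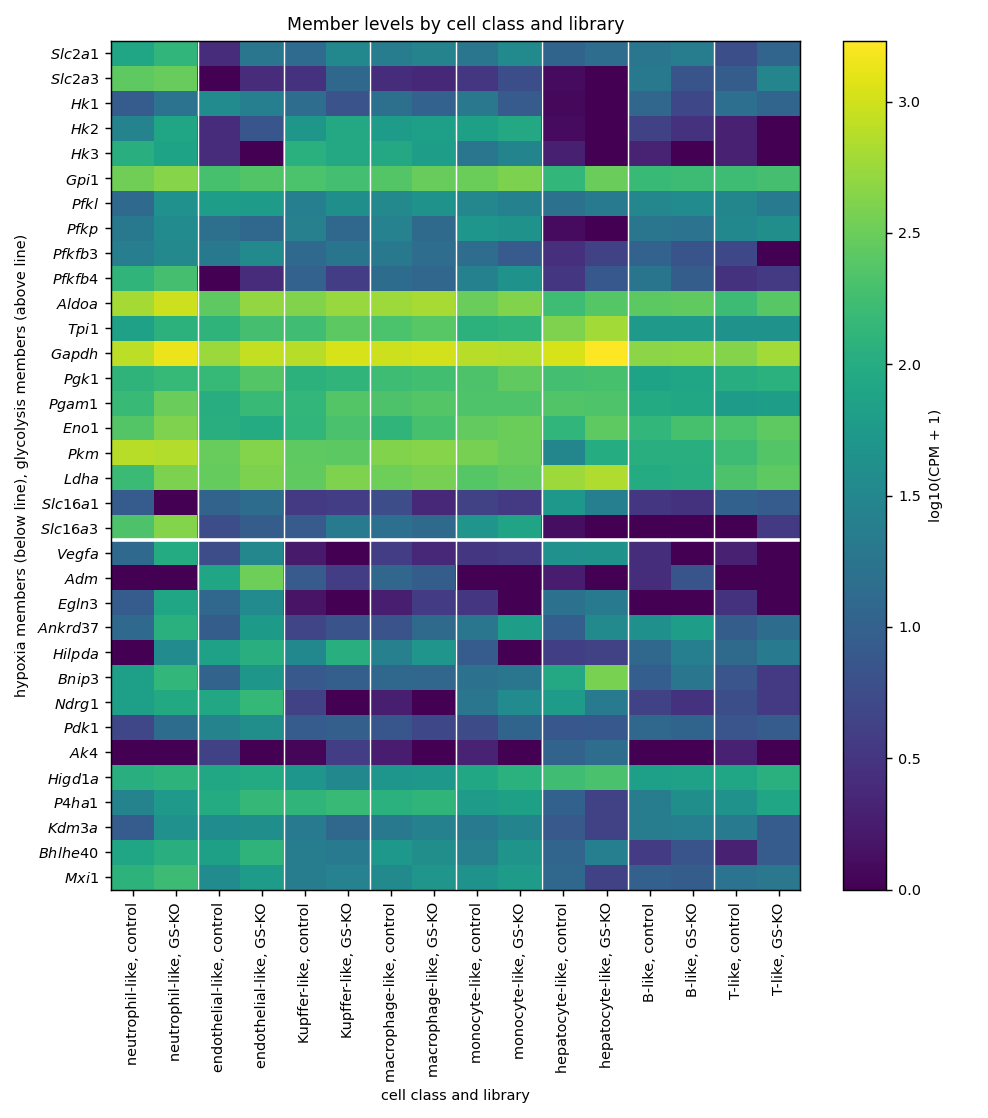
Level of the 34 genes in 8 cell classes (columns, control then GS-KO library) as the base-10 logarithm of CPM plus 1. Rows above the white line are glycolysis genes and rows below it hypoxia genes. The rows of Slc2a3, Pfkfb4 and Slc16a3 are bright mainly in neutrophil-like cells and the row of Adm is brightest in endothelial-like cells.

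Hypoxia genes divided between endothelial-like and hepatocyte-like cells in the control library, each highest for 5 of 14, where 26% and 21.5% of all genes were, and 2 (Bhlhe40 and Mxi1) were highest in neutrophil-like cells (12.4% of all genes). The interval over the next class lay above 1 for 3 of the endothelial-like, 2 of the hepatocyte-like and 1 of the neutrophil-like genes. In the GS-KO library 12 genes had enough UMIs, and 5 of these (Vegfa, Egln3, Ankrd37, Kdm3a and Mxi1) were highest in neutrophil-like, 3 in endothelial-like (Adm, Ndrg1 and Bhlhe40), 2 in hepatocyte-like (Bnip3 and Higd1a) and 2 in Kupffer-like cells. The shares of all genes were 14.2%, 24.6%, 17.4% and 9.71% in the same order, so that the endothelial-like and hepatocyte-like counts lay near them. The interval lay above 1 for 4, 2, 2 and 0 of these genes. Adm stood at 80.1 CPM (95% interval 59.4 to 106) and 334 CPM (95% interval 290.1 to 382) in endothelial-like cells, 7.53-fold (95% interval 5.33 to 10.5) and 41.9-fold (95% interval 18.9 to 115) above macrophage-like cells, with no UMI in neutrophil-like or monocyte-like cells of either library, where counts of 0 allow up to 11.7 and 9.66 CPM in the former and 3.34 and 7.58 CPM in the latter. P4ha1, a collagen prolyl hydroxylase subunit, was at 129 and 152 CPM in Kupffer-like and 9.15 and 3.35 CPM in hepatocyte-like cells. Vegfa was at 41.8 CPM in control hepatocyte-like cells, 3.58-fold (95% interval 1.22 to 17.4) above control neutrophil-like cells, while in the GS-KO library neutrophil-like cells were 2.22-fold (95% interval 1.12 to 4.63) above hepatocyte-like cells. In that library 12 of the neutrophil-like Vegfa UMIs lay in 1 cell, as described below, and the factor without this cell was not computed. Mxi1, a repressor of MYC targets, was 2.78-fold (95% interval 1.68 to 4.57) higher in control neutrophil-like than in the next class. Ankrd37 was highest in B-like cells of the control library (40.4 CPM), and B-like cells of the 2 libraries lay mostly in different clusters (458 control cells in cluster 12 and 107 GS-KO cells in cluster 5).

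The remaining genes, chosen here to complete the lists, are given by their span over the 6 classes other than B-like and T-like cells. Pgk1, an ATP-making glycolysis enzyme, ranged from 118 CPM in Kupffer-like to 209 CPM in monocyte-like control cells and from 129 CPM in Kupffer-like to 273 CPM in monocyte-like GS-KO cells. Pdk1, a kinase that keeps pyruvate out of the mitochondrial cycle, ranged from 3.89 CPM in neutrophil-like to 27.2 CPM in endothelial-like control cells and from 3.98 CPM in macrophage-like to 38.1 CPM in endothelial-like GS-KO cells. Higd1a, a mitochondrial protein of the respiratory chain, ranged from 48.9 CPM in macrophage-like to 175 CPM in hepatocyte-like control cells and from 31.5 CPM in Kupffer-like to 201 CPM in hepatocyte-like GS-KO cells. Kdm3a, a histone demethylase, ranged from 7.08 CPM in hepatocyte-like to 36.8 CPM in endothelial-like control cells and from 3.35 CPM in hepatocyte-like to 41.9 CPM in neutrophil-like GS-KO cells. Bhlhe40, a transcription repressor, ranged from 10.2 CPM in hepatocyte-like to 77.9 CPM in neutrophil-like control cells and from 20.1 CPM in Kupffer-like to 124 CPM in endothelial-like GS-KO cells. Ak4, a mitochondrial adenylate kinase, was found mainly in hepatocyte-like cells, with 222 control and 4 GS-KO UMIs there and at most 10 UMIs in any other of these classes and libraries.

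Neutrophil-like cells of the GS-KO library carried more RNA of both lists. Of the 15 glycolysis genes with at least 20 UMIs over both libraries, 9 were at least 1.5-fold higher and none 1.5-fold lower, and of 9 such hypoxia genes 5 were higher and none lower, where 13% of the 2918 genes past that minimum were higher and 20.5% lower. The 10 genes below the minimum (Hk1, Pfkl, Pfkp, Pfkfb3, Slc16a1, Adm, Hilpda, Pdk1, Ak4 and Kdm3a) had 0 to 16 UMIs. The median log2 ratio was 0.75 for the glycolysis and 0.96 for the hypoxia genes, beside -0.09 for all genes past the minimum. The summed level of the 20 glycolysis genes was 4159.7 CPM in control and 6194 CPM in GS-KO cells, and that of the 14 hypoxia genes 510.2 and 1056 CPM.

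Ankrd37, an ankyrin repeat protein gene induced by HIF, stood at 11.7 CPM in control cells and 113 CPM in GS-KO cells, a ratio of 9.64 (3.04 to 49), where parentheses hold the 95% interval here and below. Its 35 GS-KO UMIs came from 25 of 103 cells, against 3 of 99 control cells with 1 UMI each. Egln3, the oxygen-sensing hydroxylase that HIF itself induces, stood at 7.79 and 80.5 CPM, a ratio of 10.3 (2.58 to 90), with UMIs in 10 GS-KO and 2 control cells. Vegfa stood at 11.7 and 96.6 CPM, a ratio of 8.27 (2.57 to 42.3), and 12 of its 30 GS-KO UMIs lay in 1 of 11 cells that had any. These 3 genes were near the counting floor in the control library. At a median of 2602 UMIs per GS-KO cell, a cell without a UMI may still hold the transcript.

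Among the glycolysis genes Ldha went from 159.7 to 386 CPM, a ratio of 2.42 (1.68 to 3.54), and was detected in 29 of 99 and 60 of 103 cells. The lactate exporter Slc16a3 had 210.3 and 425 CPM, a ratio of 2.02 (1.46 to 2.83), and Gapdh 806 and 1378 CPM, a ratio of 1.71 (1.44 to 2.03). Ldha and Slc16a3, which make and export lactate, were thus higher by more than counting error, as was Gapdh in the middle of the pathway. Pkm, at 756 and 724 CPM, had a ratio of 0.959 (0.788 to 1.17) and Hk3, at 105 and 74 CPM, one of 0.704 (0.386 to 1.28), the only measured glycolysis genes with a ratio below 1. Slc2a3 had a ratio of 1.13 (0.817 to 1.56). Of genes chosen after their values were seen, Pgam1 had a ratio of 1.96 (1.34 to 2.92), Eno1 1.78 (1.3 to 2.47), Aldoa 1.55 (1.27 to 1.88) and Hk2, from 7 and 24 UMIs, 2.83 (1.18 to 7.79).

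One GS-KO neutrophil-like cell held 34 of the 328 hypoxia UMIs, from 10 of the 14 genes, and without it the summed hypoxia level was 961 CPM. Hilpda, a lipid droplet protein gene named after its values were seen, had 0 control and 11 GS-KO UMIs, all in 1 cell, which is at least 3.03-fold higher against a floor of 3 UMIs. With the cell richest in each gene left out of each library, the log2 ratios were 3.45 for Ankrd37, 3.40 for Egln3, 2.65 for Vegfa, 1.29 for Ldha and 1.04 for Slc16a3, against 3.09, 3.11, 2.87, 1.27 and 1.01 with all cells. Ankrd37, Egln3 and Vegfa had so few control UMIs that leaving out a control cell also lowered the control level. For these genes the values do not measure how much rests on 1 GS-KO cell. Other RNA also differed between the 2 sets of neutrophil-like cells. The summed level of 28 early-response genes was 29312 and 37760.2 CPM, of 31 abundant hepatocyte genes 6169 and 3187 CPM, of the macrophage markers 2796 and 422 CPM, of the B-cell markers 471 and 12.9 CPM and of the neutrophil markers 117549 and 175476 CPM in the control and GS-KO libraries. Of 17 measured hepatocyte genes 16 were at least 1.5-fold lower in GS-KO cells, beside 20.5% of all genes. Their median log2 ratio was -3.67, a larger fall than that of the sum. The macrophage marker list includes Apoe. The median mitochondrial share was 3.23% and 1.71%. The part of these in the ratios was not tested.

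**Figure D2:**
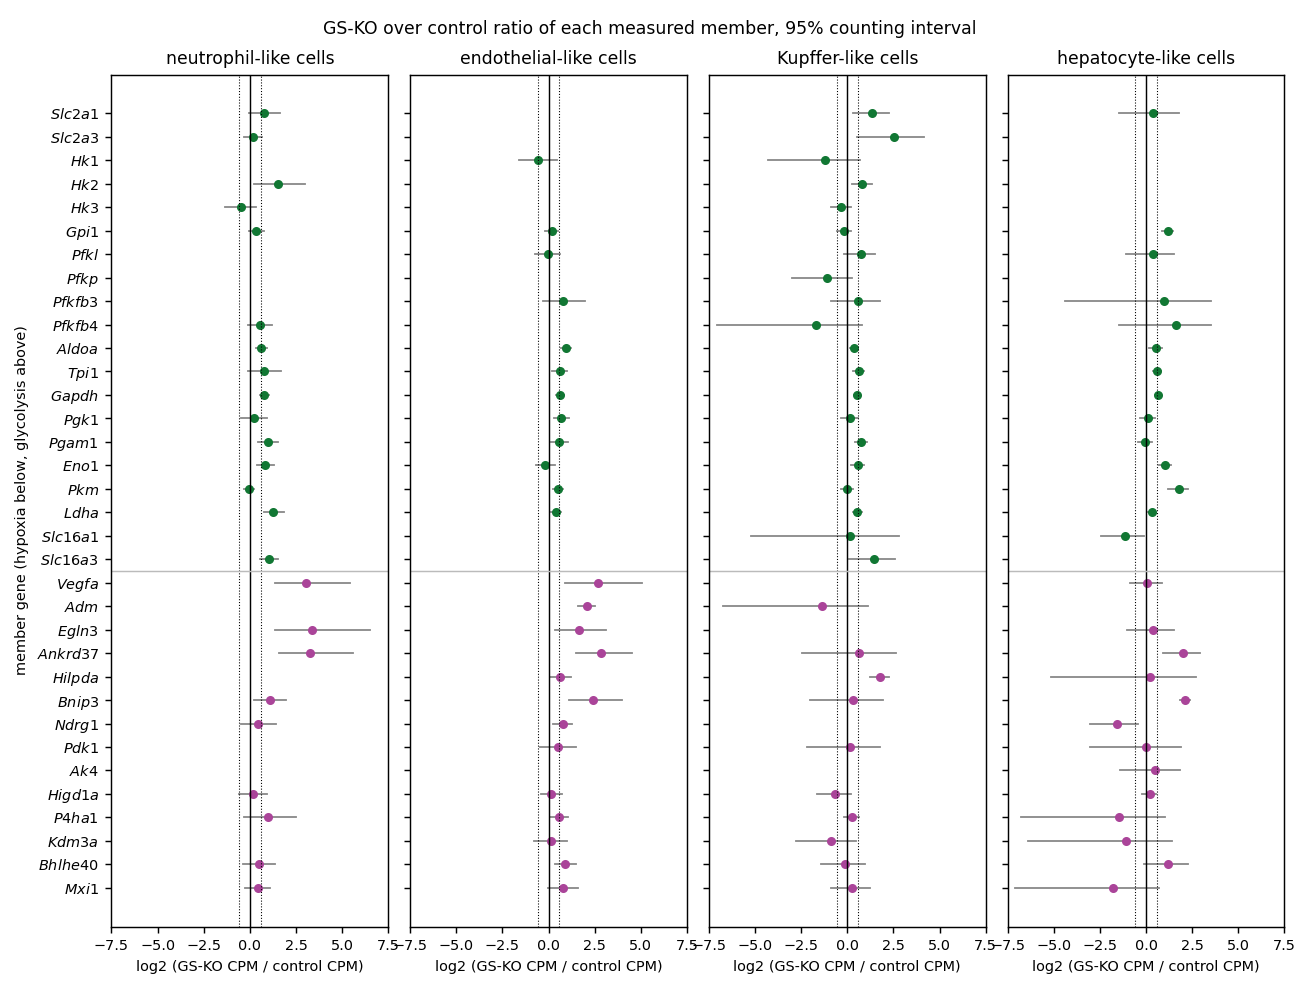
GS-KO over control ratio (log2 scale) of each gene with at least 20 UMIs over both libraries and a UMI in each, in 4 cell classes, with 95% counting intervals as lines and 1.5-fold in either direction as dotted lines. Most points lie to the right of 0 in neutrophil-like and endothelial-like cells, and on both sides in Kupffer-like and hepatocyte-like cells, whose intervals are wide.

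Endothelial-like cells of the GS-KO library also had higher levels of genes of both lists. Of 13 measured hypoxia genes 9 were at least 1.5-fold higher and none lower, and of 12 glycolysis genes 5 were higher and none lower, beside 12.1% higher and 13.2% lower of 7102 genes. Ak4 and 8 glycolysis genes (Slc2a1, Slc2a3, Hk2, Hk3, Pfkp, Pfkfb4, Slc16a1 and Slc16a3) had under 20 UMIs. The median log2 ratio was 0.76 for the hypoxia and 0.54 for the glycolysis genes, beside -0.01 for all genes. The summed hypoxia level was 617 CPM in control and 1251 CPM in GS-KO cells.

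Adm, whose peptide relaxes vessels, went from 80.1 to 334 CPM, a ratio of 4.17 (3.05 to 5.79), with UMIs in 27 of 113 control and 39 of 87 GS-KO cells. Ankrd37 stood at 8.01 and 57.2 CPM, a ratio of 7.14 (2.79 to 23.3), and 1 cell held 21 of the 36 GS-KO UMIs. Bnip3 stood at 9.61 and 50.8 CPM, a ratio of 5.29 (2.18 to 15.5), and Vegfa at 4.8 and 30.2 CPM, a ratio of 6.28 (1.85 to 33.2). The 4 genes were each higher when the richest cell was left out of both libraries, with log2 ratios of 2.09, 2.71, 2.60 and 2.19. Ankrd37, Bnip3 and Vegfa had few control UMIs, so leaving out a control cell also lowered their control level. In the glycolysis list Aldoa had 267 and 507 CPM, a ratio of 1.9 (1.57 to 2.3), and Gapdh 564 and 864 CPM, a ratio of 1.53 (1.34 to 1.76). After thinning every cell to 1000 UMIs the log2 ratio of Aldoa was 0.42 in place of 0.92. Ratios below 1 were those of Hk1 (0.676, interval 0.326 to 1.36), Eno1 (0.89, interval 0.619 to 1.28) and Pfkl (0.967, interval 0.602 to 1.55), all with intervals that include 1. Ndrg1, Bhlhe40 and Egln3, named after their values were seen, had ratios of 1.7 (1.19 to 2.44), 1.84 (1.25 to 2.75) and 3.12 (1.29 to 8.64).

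A single GS-KO endothelial-like cell of 53715 UMIs held 12.7% of that library's hypoxia UMIs, and without it the summed level was 1194 CPM. Early-response genes were at 6837 and 15817 CPM, abundant hepatocyte genes at 4354 and 1144 CPM and endothelial markers at 12335 and 11355 CPM in the control and GS-KO endothelial-like cells, and median depth was 3771 and 5495 UMIs. Their part in the ratios was not tested.

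**Figure D3:**
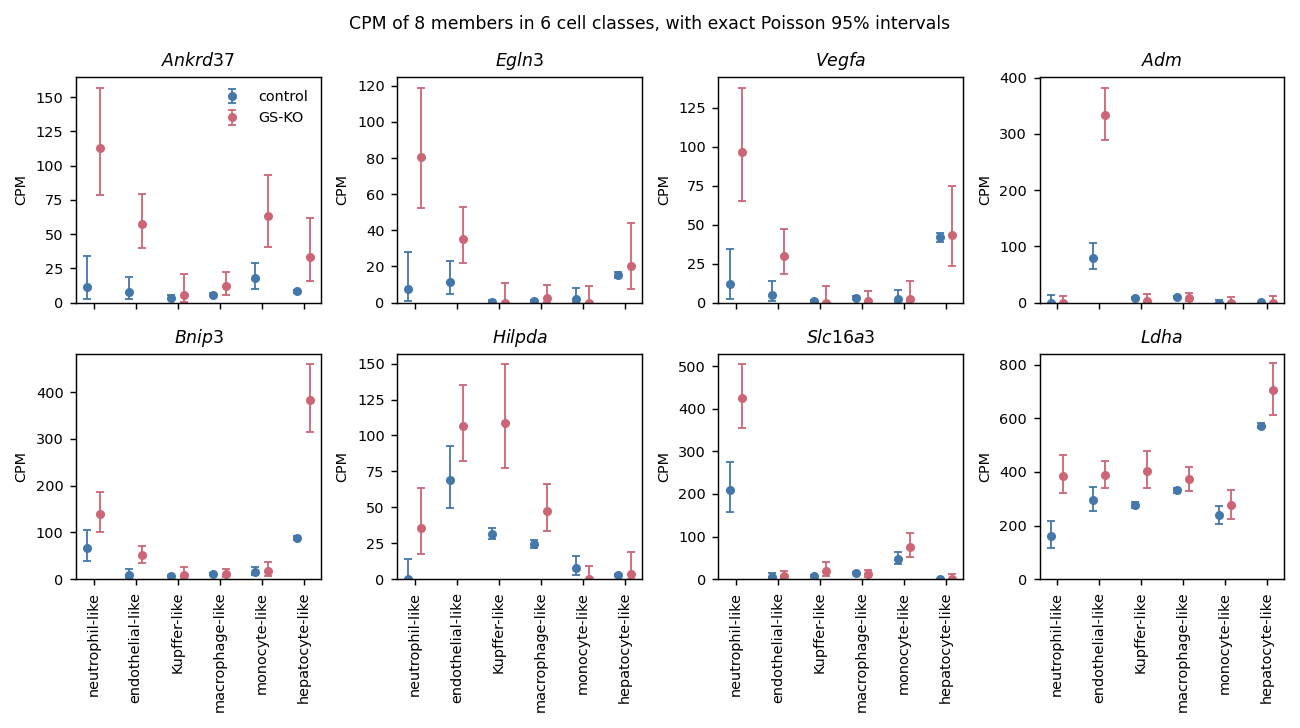
Level (CPM, linear axes from 0) of 8 genes in 6 cell classes of the control and GS-KO libraries, with exact Poisson 95% intervals as bars. Intervals of the 2 libraries do not overlap for Ankrd37, Egln3 and Vegfa in neutrophil-like cells, for Adm in endothelial-like cells and for Bnip3 in hepatocyte-like cells, and they overlap in macrophage-like cells for 7 of the 8 genes.

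The macrophage groups had genes of both lists on either side. Kupffer-like cells had 7 glycolysis genes at least 1.5-fold higher and 3 lower of 20, and 2 hypoxia genes higher and 4 lower of 11 measured, beside 12.5% higher and 26.2% lower of 10267 genes. The median log2 ratio was 0.53 for glycolysis and 0.15 for hypoxia genes (0.23 with Ndrg1, which had no GS-KO UMI, set at 3 UMIs), beside -0.12 for all genes. Hilpda went from 31.6 to 109 CPM, a ratio of 3.45 (2.39 to 4.86), but 19 of its 38 GS-KO UMIs lay in 1 cell, and with the richest cell of each library left out its log2 ratio was 0.95 in place of 1.78. Pgam1, phosphoglycerate mutase, was at 136 and 229 CPM, a ratio of 1.69 (1.33 to 2.12), Gapdh at 763 and 1080.1 CPM, a ratio of 1.41 (1.27 to 1.57), and Ldha at 275 and 404 CPM, a ratio of 1.47 (1.23 to 1.74). The log2 ratio of Pgam1 was 0.28 by the mean over cells in place of 0.76. The glucose carrier Slc2a1 was at 12.4 and 31.5 CPM, a ratio of 2.54 (1.23 to 4.74) from 11 GS-KO UMIs, and Slc2a3, with 4 GS-KO UMIs, had 5.83 (1.42 to 18.1). Ratios below 1 were those of Gpi1 (0.889, interval 0.681 to 1.14), Hk3 (0.794, interval 0.536 to 1.13), Higd1a (0.64, interval 0.317 to 1.16), Pfkp (0.466, interval 0.126 to 1.21), Kdm3a (0.539, interval 0.145 to 1.41) and Hk1 (0.432, interval 0.0516 to 1.6), among others, and all 6 intervals include 1. Vegfa, Egln3 and Ak4 had under 20 UMIs, and Ndrg1 had 26 control UMIs and none in the GS-KO library. Early-response genes were at 6412 and 10394 CPM in these cells.

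Macrophage-like cells, which joined a cluster led by Mmp12 and Cd207 (408 control and 27 GS-KO cells) and one led by Ms4a7 and Gpnmb (206 and 20), had 1 of 20 glycolysis genes at least 1.5-fold higher and 3 lower and 2 and 2 of 11 hypoxia genes, beside 11.5% and 19.4% of 10784 genes. The Mmp12 cluster also carried Kupffer markers, at 14753 and 16864 CPM against 13804 and 11151 CPM in Kupffer-like cells, with Clec4f and Vsig4 beside Mmp12 and Trem2 among its 10 leading genes, so that the 2 classes share features. The medians were 0.08 for both lists, beside -0.05 for all genes. Eno1, an enolase, was at 127 and 195 CPM, a ratio of 1.53 (1.28 to 1.81), and Hilpda at 24.5 and 47.8 CPM, a ratio of 1.95 (1.34 to 2.76). With the richest cell of each library left out the log2 ratios were 0.42 for Eno1 and 0.51 for Hilpda, in place of 0.61 and 0.96, and that of Hilpda was 0.40 at clustering resolution 2. Pfkp was lower, at 26.2 and 11.9 CPM, a ratio of 0.457 (0.207 to 0.877), and so was Hk3, at 87.6 and 63.7 CPM, a ratio of 0.727 (0.533 to 0.971). Gpi1, Aldoa, Tpi1 and Mxi1 had ratios of 1.28 (1.11 to 1.47), 1.13 (1.03 to 1.24), 1.17 (1 to 1.36) and 1.45 (1 to 2.04). Within the clusters the glycolysis median was -0.06 in the Mmp12 cluster and 0.34 in the Ms4a7 cluster, and the summed glycolysis level 3594 and 3640.3 CPM in the former and 3354 and 4354 CPM in the latter. This difference between the clusters was not tested. In the class as a whole, 1 GS-KO cell held 384 of the 2919 glycolysis UMIs. Without the richest cell of each library the summed level was 3489 CPM in control and 3471 CPM in GS-KO cells, against 3526 and 3874 CPM with all cells. The cluster that holds this GS-KO cell is not given. Egln3, Ndrg1 and Ak4 had under 20 UMIs in macrophage-like cells. Early-response genes were at 6675 and 13964 CPM and haemoglobin RNA at 1084 and 11.9 CPM in macrophage-like cells, and haemoglobin RNA at 3578 and 24.3 CPM in the Ms4a7 cluster. Their part in the ratios was not tested.

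Monocyte-like cells had 4 of 17 measured glycolysis genes higher and 1 lower, and 3 of 8 hypoxia genes higher and none lower, beside 11.2% and 15.6% of 6207 genes, with medians of 0.21 and 0.46 against -0.02 for all genes. Ankrd37 was again higher, at 17.8 and 63.2 CPM, a ratio of 3.55 (1.82 to 7.11), from 16 and 25 UMIs. Aldoa (1.33, interval 1.09 to 1.61), Pgk1 (1.3, interval 1.02 to 1.66) and Gpi1 (1.24, interval 1.02 to 1.51) had smaller ratios, and Pkm, at 368 and 313 CPM, had 0.853 (0.688 to 1.05). Hilpda had 7 control UMIs and none in the GS-KO library, and Slc2a3, Pfkfb3, Slc16a1, Vegfa, Adm, Egln3, Pdk1 and Ak4 also had under 20 UMIs. In the control and GS-KO monocyte-like cells early-response genes were at 10834 and 17217 CPM, neutrophil markers at 143 and 950.3 CPM, Kupffer markers at 459 and 22.7 CPM and macrophage markers at 6342 and 4031 CPM. Their part in the ratios was not tested.

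Hepatocyte-like cells, the class in which Glul was highest in the control library, had genes of both lists on either side. Of 15 measured glycolysis genes 6 were at least 1.5-fold higher and 2 lower, and of 13 hypoxia genes 3 were higher and 4 lower, beside 20.8% higher and 35.5% lower of 11355 genes. Counted in either direction, the share past 1.5-fold was close to that of all genes for both lists. By direction, more glycolysis genes were higher than lower, whereas more of all genes were lower. The medians were 0.54 (0.58 with Hk3, which had no GS-KO UMI, set at 3 UMIs) and 0.19, beside -0.14 for all genes. Bnip3, which tags mitochondria for removal, went from 88.4 to 382 CPM, a ratio of 4.33 (3.55 to 5.23), with UMIs in 324 of 401 control and 14 of 17 GS-KO cells, and within the larger hepatocyte-like cluster (334 and 11 cells) the ratio was 3.34 (2.6 to 4.23). Ndrg1, a stress-induced gene, was lower, at 59.4 and 20.1 CPM, a ratio of 0.339 (0.124 to 0.739) from 6 GS-KO UMIs. In an unnamed cluster led by Maoa, Bnip3 and Hspb1 (263 control and 49 GS-KO cells) the 2 genes, chosen there after their values were seen, had ratios of 1.58 (1.15 to 2.13) and 0.199 (0.0639 to 0.473). The hypoxia list as a whole had a median log2 ratio of -0.89 there (-0.04 with 2 genes without a GS-KO UMI set at 3 UMIs), beside -0.04 for all genes, and a summed level of 634 and 623 CPM. Abundant hepatocyte genes were at 72658 and 64725 CPM in that cluster, and at a clustering resolution of 0.5 the larger hepatocyte-like cluster held 589 control and 60 GS-KO cells.

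Of the enzymes in hepatocyte-like cells, Gpi1 was at 137 and 309 CPM, a ratio of 2.25 (1.8 to 2.76), Eno1 at 132 and 268 CPM, a ratio of 2.04 (1.61 to 2.54), and Gapdh at 1095 and 1703 CPM, a ratio of 1.56 (1.42 to 1.7). These 3 steps are reversible. The log2 ratio of Gpi1 was 0.57 by the mean over cells in place of 1.17, and that of Eno1 0.41 after thinning to 1000 UMIs in place of 1.03. Ldha had a ratio of 1.23 (1.07 to 1.41), and Pgam1 one of 0.977 (0.753 to 1.25). The lactate carrier Slc16a1 was lower, at 51.7 and 23.5 CPM, a ratio of 0.454 (0.182 to 0.938) from 7 GS-KO UMIs. Pkm had a ratio of 3.4 (2.28 to 4.9), but 25 of its 30 GS-KO UMIs lay in 1 cell, and without the richest cell of each library its log2 ratio was -0.31 in place of 1.77. Slc2a3, Hk1, Hk2, Pfkp, Slc16a3 and Adm had under 20 UMIs. Ankrd37 had a ratio of 4.07 (1.92 to 7.65) from 10 GS-KO UMIs, 5 of them in 1 cell. Early-response genes were at 4162 and 3658 CPM and macrophage markers at 19189 and 15197 CPM in these cells. The macrophage marker list includes Apoe, and the Kupffer markers were at only 176 and 90.5 CPM, so the sum does not measure macrophage RNA. The share of the smaller hepatocyte-like cluster, led by Serpina1c and Mup genes, was 67 of 401 control and 6 of 17 GS-KO cells, and its part in the ratios was not tested beyond the value within the larger cluster.

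Depth differed between classes and libraries, so cells were also thinned to 1000 UMIs each. At that depth, a hypoxia UMI was found in 42.3% (32.3 to 52.7) of the 97 neutrophil-like cells left in the control library and 55.3% (45.2 to 65.1) of the 103 in the GS-KO library (exact binomial 95% intervals in parentheses), and 34.3% (25.2 to 44.4) of 102 and 60.5% (48.6 to 71.6) of 76 endothelial-like cells. In macrophage-like cells the shares were 25.6% (22.2 to 29.2) and 14.9% (6.2 to 28.3), in Kupffer-like cells 27% (23.1 to 31.1) and 35% (15.4 to 59.2) and in hepatocyte-like cells 33.6% (28.9 to 38.5) and 52.9% (27.8 to 77). The intervals of the 2 libraries did not overlap in endothelial-like cells and overlapped in the other 5 classes shown. A neutrophil-like cell held a median of 3 glycolysis UMIs per 1000 in control and 5 in GS-KO cells, with quartiles of 2 to 5 and 3 to 7.5. An endothelial-like cell held 2 and 3. At this depth Ldha was found in 19.6% (12.2 to 28.9) and 35.9% (26.7 to 46) of neutrophil-like cells, control first, and Adm in 5.88% (2.19 to 12.4) and 19.7% (11.5 to 30.5) of endothelial-like cells. Without thinning, Ldha had a UMI in 29.3% and 58.3% of neutrophil-like cells and Adm in 23.9% and 44.8% of endothelial-like cells. B-like cells, which should lack Adm, had it in 1 of 469 control and 3 of 120 GS-KO cells without thinning, at median depths of 3669 and 3823 UMIs.

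**Figure D4:**
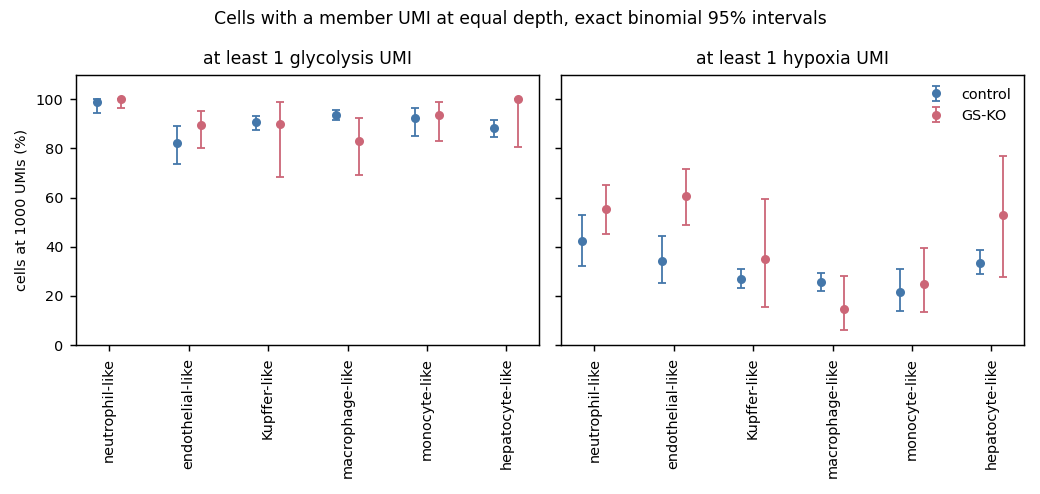
Share of cells, thinned to 1000 UMIs, with at least 1 UMI of a glycolysis gene (left) or a hypoxia gene (right) in 6 cell classes of the control and GS-KO libraries, with exact binomial 95% intervals. Most cells have a glycolysis UMI, and for hypoxia genes the GS-KO point stands above the control point in every class shown but macrophage-like cells, with intervals apart in endothelial-like cells.

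Other genes of the pathways lay on both sides. Of 45 further hypoxia-related genes, neutrophil-like cells had 4 of 14 measured higher and 0 lower and endothelial-like cells 7 of 24 measured higher and 1 lower by at least 1.5-fold, with medians of 0.34 and 0.33. Over all genes 13% were higher and 20.5% lower in neutrophil-like and 12.1% and 13.2% in endothelial-like cells, with medians of -0.09 and -0.01, for this and the other wider lists. Edn1, the vasoconstrictor endothelin, went from 6.41 to 164 CPM in endothelial-like cells, a ratio of 25.5 (9.68 to 95.5), from 4 control UMIs in 2 cells and 103 GS-KO UMIs in 20 cells. Apln, a peptide of growing vessel tips, was at 155 and 289 CPM, a ratio of 1.86 (1.45 to 2.41), though only 8 control and 10 GS-KO cells carried it, and Dusp1, which is also an early-response gene, had a ratio of 2.02 (1.71 to 2.39). In neutrophil-like cells the cytokine Mif had a ratio of 1.96 (1.23 to 3.2) and the chemokine receptor Cxcr4 one of 1.53 (1.18 to 2). Ddit4, a stress-induced inhibitor of mTORC1, had ratios of 6.19 (3.85 to 9.62) in Kupffer-like and 11.9 (8.17 to 17.3) in macrophage-like cells. Of 35 further glycolysis-related genes, neutrophil-like cells had 1 of 5 measured higher and 1 lower and endothelial-like cells 3 of 11 measured higher and 2 lower, where the mitochondrial pyruvate carrier gene Mpc2 had a ratio of 0.697 (0.501 to 0.965). The 11 regulators of HIF gave 1 of 2 measured higher and 0 lower in neutrophil-like and 0 of 7 measured higher and 0 lower in endothelial-like cells.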

How the data were processed

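UMI counts, 1 matrix of raw counts per library, were deposited by the authors, who per the submitters' processing notes used Cell Ranger and mm10; the matrix header gives software version 3.1.0. Annotation, other settings and the role of each tool are not given in the sources used here. The library kit is given as 3PrimeV2, and 1 protocol line describes nuclei rather than cells.

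Scrublet (expected rate 5%) marked 24 control and 7 GS-KO doublets. Cells were normalised to 10000 UMIs, log transformed, reduced from 2000 variable genes (without the members and wider lists) to 30 components, and clustered (15 neighbours, Leiden resolution 1, seed 1) without batch correction, since library and group coincide. A cluster was named from at least 3 markers at 2 times the level elsewhere, in at least 20% of its cells. The name also needed more markers than any other cell type, and no other type with more markers among the 10 leading genes. Without a marker among these, more markers and more depth were required. Unnamed clusters entered no class. Among them were a cluster with 4 Kupffer and 4 macrophage markers (251 control and 26 GS-KO cells) and one with 8 natural killer and 8 T markers. Clustering used scanpy 1.11.5 under Python 3.11.15, and intervals scipy 1.17.1.

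UMIs were summed per class and library. CPM carry exact Poisson, ratios conditional binomial and shares exact Clopper-Pearson 95% intervals. Log2 ratios used a prior count of 0.5. Fold ratios printed as such use none. A gene was measured in a class with at least 20 UMIs over both libraries, and its highest class was read with at least 50. Aldoa had 2 rows, and the second, with 1 UMI, was not used. Ratio code was tested on simulated counts. For each class, up to 6 members higher and 6 lower by the interval bound nearest 1 were named, and up to 3 each way of the wider lists. Some genes of the wider lists are not reported here. The members, lists and classes were chosen with earlier results of these data known. Several enzyme genes, such as Gapdh, have near-identical pseudogenes, so their counts could miss shared reads.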

Additional observations from a re-analysis of the deposited data

Results flagged for a closer look

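Ndrg1 differed in opposite directions between the libraries in 2 classes by counting intervals: its log2 ratio of GS-KO over control was 0.76 in endothelial-like and -1.56 in hepatocyte-like cells. With 1 mouse per group this difference was not tested, and the hepatocyte-like value rests on 6 GS-KO UMIs.

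Barcodes left out for more than 20% mitochondrial UMIs, 1799 control and 694 GS-KO barcodes in all, entered none of the comparisons. Among their non-mitochondrial UMIs the 20 glycolysis genes made up 2623 (2568 to 2678) CPM for control and 4386 (4188 to 4590.5) CPM for GS-KO barcodes, and the 14 hypoxia genes 459.7 (437 to 483) and 664 (589 to 747) CPM (exact Poisson 95% intervals in parentheses). These barcodes were not assigned to cell classes, and abundant hepatocyte genes made up 102030 and 86589.6 CPM of them.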

How the results depend on the processing

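The list medians, the counts of genes past 1.5-fold, the counts of genes highest in a class and the log2 ratios of members named by rule were recomputed under 11 alternatives, or 7 to 10 of them where too few UMIs or genes were left. Wider-list and gluconeogenesis genes, summed levels and shares of cells were not. The alternatives were Leiden resolutions 0.5 and 2, pathway genes kept in the clustering, a mitochondrial limit of 10%, doublets kept, a mean over cells, cells thinned to 1000 UMIs, mitochondrial, ribosomal, haemoglobin and hepatocyte genes left out of the total, the richest cell of each gene left out, a minimum of 50 UMIs and a prior count of 2. Median log2 ratios ranged from 0.58 to 0.75 (glycolysis) and 0.45 to 1.26 (hypoxia) in neutrophil-like cells, 0.42 to 0.69 and 0.67 to 0.96 in endothelial-like, -0.04 to 0.66 and -0.31 to 0.71 in Kupffer-like, -0.08 to 0.44 and -0.89 to 0.19 in macrophage-like, 0.08 to 0.35 and 0.41 to 0.81 in monocyte-like and 0.11 to 0.74 and -0.50 to 0.55 in hepatocyte-like cells. Of 129 such values, 2 left the interval of the reported value. They were the macrophage-like glycolysis median of 0.44 at resolution 2 and the macrophage-like hypoxia median of -0.89 after thinning. That interval runs from the median of the genes' own lower bounds to the median of their upper bounds. It is wide, from -2.02 to 1.20 for the Kupffer-like hypoxia median, so a value inside it can differ in sign from the reported one. The count of genes at least 1.5-fold higher, both lists together, ranged from 9 to 15 in neutrophil-like (14 as reported), 6 to 16 in endothelial-like (14), 4 to 17 in Kupffer-like (9), 0 to 7 in macrophage-like (3), 1 to 8 in monocyte-like (7) and 5 to 13 in hepatocyte-like cells (9), and of those lower from 0 to 1 (0), 0 to 2 (0), 2 to 9 (7), 4 to 9 (5), 0 to 2 (1) and 2 to 10 (6) in the same order.

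Of 393 recomputed log2 ratios of 38 pairs of a named gene and a class, 5 changed sign: Pkm in hepatocyte-like cells with doublets kept (-0.38) and without its richest cells (-0.31), and in macrophage-like cells Aldoa (-0.036) and Mxi1 (-0.997) after thinning and Tpi1 (-0.036) without its richest cells. A further 31 left the counting interval with the same sign. Among these, log2 ratios ranged from 0.17 to 0.56 for Gapdh and 0.95 to 2.52 for Hilpda in Kupffer-like cells, 0.57 to 1.27 for Gpi1 and -5.01 to -1.14 for Ndrg1 in hepatocyte-like cells and 0.42 to 0.92 for Aldoa in endothelial-like cells. Thinning leaves fewer genes past 50 UMIs by construction, so the glycolysis genes highest in neutrophil-like, endothelial-like and hepatocyte-like cells numbered 3, 1 and 3 in the control library and 4 and 0 in the first 2 of these classes in the GS-KO library, and the hypoxia genes 0 (endothelial-like) and 2 (hepatocyte-like) in the control and 0, 0 and 1 in the GS-KO library. GS-KO endothelial-like cells were highest for 5 hypoxia genes at resolution 0.5, and for 1 glycolysis gene at the 10% mitochondrial limit, 1 with doublets kept and 0 by the mean over cells. The causes were not tested.

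No paired analysis was possible because each group has 1 sample. Leaving out a replicate was not possible for the same reason. With 1 mouse per group, mouse, library and genotype cannot be told apart, and the 17 GS-KO hepatocyte-like and 25 Kupffer-like cells limit the precision there.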

Other observations

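Genes of glucose production, which share most enzymes with glycolysis but have their own at the irreversible steps, also differed between the libraries in hepatocyte-like cells. Of 7 gluconeogenesis genes 4 were at least 1.5-fold higher and 1 lower in the GS-KO library, beside 20.8% higher and 35.5% lower of all genes. Pck1, the phosphoenolpyruvate carboxykinase, was at 19.6 and 449 CPM in the control and GS-KO libraries, a ratio of 22.9 (18.8 to 27.9), and 63 of its 134 GS-KO UMIs lay in 1 of 9 cells. Fbp1, fructose bisphosphatase, was at 77.5 and 382 CPM, a ratio of 4.93 (4.05 to 5.96), and G6pc, glucose-6-phosphatase, at 23.3 and 73.8 CPM, a ratio of 3.16 (1.96 to 4.83). Pck1 is among the leading genes of the smaller hepatocyte-like cluster, which held 67 of 401 control and 6 of 17 GS-KO cells. Within the larger cluster (334 and 11 cells) the ratios were 114 (61.4 to 212) for Pck1, from 21 and 26 UMIs, 3.91 (2.92 to 5.14) for Fbp1 and 4.11 (2.37 to 6.67) for G6pc.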
